A study of Mus musculus with 39 samples.

Results

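Cued fear conditioning was compared with no conditioning in the hippocampus of APP/Tau mice, a model that carries amyloid and tau transgenes together. The comparison holds 9 of the 39 libraries of the series: 4 from trained APP/Tau mice, killed 1 h after the shock, and 5 from naive APP/Tau mice. Libraries were chosen by their titles, which give the tissue, the genotype and the training. Beside them stand 6 trained and 5 naive hippocampal libraries of control mice, and 4 trained and 5 naive libraries from the basolateral amygdala (BLA) of APP/Tau mice.

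All mice were females aged 9 months on a C57BL/6 background. APP/Tau mice carried APP/Tau;Camk2a_Cre;RiboTag+/-, that is APPSw,Ind (line J9) and human Tau P301S (line PS19) together with the Cre driver and the RiboTag allele. Controls were Camk2a_Cre;RiboTag+/- and so shared Cre and RiboTag with the APP/Tau mice. The CaMKIIα-Cre driver acts in forebrain glutamatergic neurons, where it switches on a tagged ribosomal protein. The RNA used here is the input of that purification, the cleared lysate before the tagged ribosomes are bound, and it comes from all cell types of the tissue. In such bulk RNA, fewer cells of a type and less RNA per cell cannot be told apart. Trained mice heard a tone of 2800 Hz and 80 dB for 30 s that ended with a foot shock of 0.8 mA for 2 s. What naive mice were exposed to is not stated, so the effects of tone, shock, chamber and handling cannot be told apart. Hippocampi of both hemispheres were dissected from frozen sections of 300 µm. No label ties a library to an animal, so the p-values measure the spread between these libraries.

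Neurons that fire strongly transcribe immediate early genes within minutes, before any new protein is made. Calcium entry and the ERK and CaMK kinases phosphorylate CREB and SRF, which sit ready on the promoters of Fos, Egr1, Arc, Npas4 and their relatives. The products of these genes are mostly transcription factors, which then act on slower effector genes at the synapse. In the hippocampus such genes are widely used to mark cells recruited by a new context or an aversive event, and their messages are short-lived.

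The 9 libraries held 94.2 to 122 M counts each (median 111 M). Counts from 18S rRNA made up 0.0477 to 0.242% of each and mitochondrially encoded genes 3.06 to 3.76%. All 36 pairs of these libraries differed beyond sampling noise, with a chi-square per gene of at least 21.0. Prnp, whose promoter drives the tau transgene of line PS19 and whose transcript that transgene can share in part, had 1783 ± 179 CPM (counts scaled to the same library total) in trained and 2004 ± 154 CPM in naive APP/Tau mice, against 856 ± 74.9 and 891 ± 50.1 CPM in trained and naive controls (SD, n = 4, 5, 6 and 5). This fits the genotype labels. All 10 genes of a list of hippocampal identity markers were detected, with a summed level of 803 to 1309 CPM in trained and 899 to 1326 CPM in naive libraries. Among them Prox1, which marks dentate granule cells, averaged 108 ± 31.4 CPM in trained and 92.7 ± 17.99 CPM in naive mice (SD, n = 4 and 5).

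No gene passed the test in this comparison. At an adjusted p under 0.05, edgeR's quasi-likelihood test called 0 of 25791 genes (0%), and the smallest adjusted p was 0.355. At an unadjusted p under 0.05, 622 genes were higher in trained mice (2.41%) and 562 were lower (2.18%), 1184 in all (4.59%). DESeq2 called 2 genes at an adjusted p under 0.05 and 1357 at an unadjusted p under 0.05, and limma-voom called 0 and 1314. With the spread estimated from the 2 groups compared alone, edgeR called 0 of 24223 genes. At an unadjusted p under 0.05 it then gave 666 genes (2.75%), 1.47% higher and 1.28% lower. List counts from that fit are not given here. All 4 trained libraries lay above all 5 naive libraries in 129 genes (0.500%) and below them in 152 genes (0.589%). The fold change was above 0 in 12601 genes (48.9%), and the median log2 change over all genes tested was -0.004. The median standard error was 0.18 on the log2 scale, and among genes with a mean of at least 1 CPM the 95% interval reached a median of 0.21 to either side of the estimate. Leaving out 1 library moved the unadjusted count to between 833 genes (3.24%, without naive library 4) and 3181 genes (12.4%, without naive library 5), with 0 adjusted calls in each of the 9 fits. Without trained library 2 it was 1835 genes (6.95%). The smallest adjusted p without naive library 5 was 0.0899. Every count of list members given here at an unadjusted p in the main fit is to be read against the 2.41% and 2.18%. A count from a fit without 1 library is to be read against the shares of that fit. These were 7.37% higher and 5.02% lower without naive library 5, 4.04% and 2.91% without trained library 2, and 3.37% and 3.22% without trained library 4. In the other fits without 1 library they were 1.76 to 2.46% higher and 1.47 to 2.38% lower.

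Levels are given as CPM with the trimmed-mean (TMM) scaling factors. Fold changes are log2 differences, trained minus naive, with the standard error (SE) of the fit and a 95% interval. Each gene given with values in this comparison has an adjusted p of 0.986 to 0.998 in edgeR's test, apart from Ttc27.

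The immediate early transcription factors were higher on balance in trained APP/Tau hippocampus, without a member passing the adjusted test. Of 32 genes listed, all 32 were tested. Of these, 12 were higher at an unadjusted p under 0.05, beside 2.41% of all genes, and 1 was lower, beside 2.18%. The fold change was above 0 in 27 of the 32, and the median log2 change was 0.24, beside -0.004 over all genes. The 12 were Fosb, Klf4, Nfil3, Fosl2, Nr4a2, Crem, Fos, Per1, Tiparp, Egr4, Nr4a1 and Egr1, and the lower gene was Btg2, an antiproliferative co-regulator. In 12 of the 32 genes all 4 trained libraries lay above the naive median. The share of all genes with this pattern was not counted, so nothing is read from this number. Leaving out a library gave 5 to 16 higher genes: 7 without trained library 2, 7 without trained library 3, 8, 5 and 7 without naive libraries 2, 3 and 4, and 16 without naive library 5, where the background itself was 7.37%. The median stayed between 0.19 and 0.30 in these fits.

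The promoters of Fosb, Fos and Npas4 are shown because these 3 genes carry the half-site of the CREB response element near their start and yet had unlike values. Each sequence is the 250 bases before the gene's start in RefSeq build GRCm38.p6, read on the gene's strand, with TGACG or its reverse complement CGTCA in capitals. Fosb lies at chr7:19310046-19310295 (minus strand), Fos at chr12:85473640-85473889 (plus strand) and Npas4 at chr19:4989972-4990221 (minus strand).
Fosb: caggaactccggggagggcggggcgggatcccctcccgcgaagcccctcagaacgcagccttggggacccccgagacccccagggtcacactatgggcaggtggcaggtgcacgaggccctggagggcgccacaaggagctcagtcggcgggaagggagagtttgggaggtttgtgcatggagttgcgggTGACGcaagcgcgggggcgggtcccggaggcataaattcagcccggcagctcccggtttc
Fos: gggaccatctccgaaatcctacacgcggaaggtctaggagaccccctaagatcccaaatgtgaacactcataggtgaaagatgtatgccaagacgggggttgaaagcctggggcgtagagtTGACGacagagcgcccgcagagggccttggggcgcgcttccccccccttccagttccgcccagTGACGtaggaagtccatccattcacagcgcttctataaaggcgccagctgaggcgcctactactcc
Npas4: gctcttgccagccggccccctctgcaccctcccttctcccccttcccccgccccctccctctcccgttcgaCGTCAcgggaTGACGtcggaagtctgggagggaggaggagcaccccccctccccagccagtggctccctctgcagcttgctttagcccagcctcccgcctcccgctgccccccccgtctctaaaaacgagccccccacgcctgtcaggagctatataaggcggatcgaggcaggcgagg
The half-site began 60 bases before the start in Fosb, 129 and 66 bases before it in Fos, and 179 and 169 bases before it in Npas4. Over windows of 300 bases (250 before to 50 after the start), 26 of the 36 promoters of the 26 listed immediate early genes found in the table held TGACG or CGTCA (72.2%), against 6837 of all 32851 promoters (20.8%). The full element TGACGTCA, which contains both, was in 2 of the 36 (5.56%) and in 588 of all promoters (1.79%). The AP-1 site TGANTCA, to which Fos and Jun proteins bind, was in 1 of the 36 (2.78%) and in 7.81% of all. Both strands were searched, and a match is only a run of letters.

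Fosb, which codes for a dimer partner of Jun proteins, had 8.69, 21.9, 14.1 and 18 CPM in the trained libraries 1 to 4, against 8.82, 6.99, 5.79, 5.99 and 9.73 CPM in the naive libraries 1 to 5. Trained libraries 2, 3 and 4 lay above all naive libraries, and trained library 1 lay among the naive ones. The means were 15.7 ± 5.65 and 7.46 ± 1.75 CPM (SD, n = 4 and 5), a log2 change of 1.07 ± 0.30 (SE, 95% interval 0.44 to 1.70).

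Fos, the classical marker of recently active neurons, had 24.5, 19.8, 31.3 and 23.1 CPM in trained libraries, against 15.6, 13.5, 8.51, 7.82 and 25.8 CPM in naive ones. All trained libraries lay above naive libraries 1 to 4, and naive library 5 lay above all trained libraries but 1. The log2 change was 0.79 ± 0.34 (SE, 95% interval 0.09 to 1.49), and it was between 0.64 and 1.12 when a library was left out, the highest without naive library 5.

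Egr1, a zinc finger factor induced through SRF, had 168, 265, 207 and 179 CPM in trained libraries, against 198, 126, 85.9, 93.8 and 181 CPM in naive ones. Naive libraries 1 and 5 fell within the trained range, and the other 3 lay under it. The log2 change was 0.58 ± 0.28 (SE, 95% interval 0.00 to 1.16). In its relatives Egr3 and Egr4, trained library 1 stood further apart from the other trained libraries. Egr3 had 62.2, 157, 108 and 129 CPM in trained libraries, against 90.8, 96.9, 81.9, 96.6 and 72.8 CPM in naive ones (log2 change 0.38 ± 0.19 SE). Egr4 had 15.2, 47.9, 29.5 and 32.9 CPM in trained libraries, against 22.4, 19.1, 16.3, 17.6 and 22.2 CPM in naive ones (log2 change 0.69 ± 0.30 SE). In both genes trained libraries 2, 3 and 4 lay above all naive libraries and trained library 1 under all of them.

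Fosl2, a Fos relative with a longer-lived message, averaged 59.7 ± 17.1 CPM in trained and 41.1 ± 7.14 CPM in naive mice, and its trained library 1, at 40.0 CPM, lay within the naive range (log2 change 0.54 ± 0.16 SE). The orphan nuclear receptors Nr4a2 and Nr4a1, which act in hippocampal memory storage, had log2 changes of 0.35 ± 0.13 and 0.47 ± 0.22 (SE). Nr4a2 had 67.3, 84.3, 61.99 and 73.7 CPM in trained libraries, against 64.3, 51.7, 46.4, 51.6 and 68.3 CPM in naive ones. Nr4a3 had a log2 change of 0.26 ± 0.17 (95% interval -0.09 to 0.62). Nfil3, a repressor of clock output genes, was the 1 listed gene whose groups did not overlap, with 14.3, 12.6, 14.7 and 13.3 CPM in trained libraries, against 9.17, 7.69, 8.24, 9.68 and 11.9 CPM in naive ones (log2 change 0.56 ± 0.17 SE). Over all genes, 0.500% had all trained libraries above all naive ones. Klf4, a zinc finger factor, averaged 6.61 ± 0.961 CPM in trained and 4.51 ± 1.05 CPM in naive mice (log2 change 0.55 ± 0.16 SE). Atf3, induced by cell stress and injury, had 7.13, 1.96, 7.54 and 2.79 CPM in trained libraries, against 2.25, 2.42, 1.83, 0.620 and 5.98 CPM in naive ones. Its high libraries were trained 1, trained 3 and naive 5, a different set from those that were high for Fosb and Egr4.

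Npas4, a neuron-specific factor that answers calcium entry, had 8.38, 12.3, 14.01 and 8.68 CPM in trained libraries, against 13.6, 19.95, 15.4, 8.62 and 11.9 CPM in naive ones. The groups overlapped, with the 2 highest values in naive mice, and the log2 change was -0.36 ± 0.20 (SE, 95% interval -0.79 to 0.06). Arc, which codes for a capsid-like protein that regulates AMPA receptors at synapses, had 54.6, 126, 116 and 126 CPM in trained libraries, against 125, 116, 73.2, 90.4 and 121 CPM in naive ones. Trained library 1 was the lowest of all 9, and the other 3 lay near the upper end of the naive range. Its log2 change was 0.01 ± 0.25 (SE, 95% interval -0.52 to 0.54), with 0.23 when trained library 1 was left out and -0.09 when naive library 3 was. Bdnf, a neurotrophin with activity-dependent promoters, had 33.0, 52.6, 40.3 and 49.2 CPM in trained libraries, against 32.9, 47.3, 38.2, 60.9 and 25.4 CPM in naive ones, with a log2 change of 0.10 ± 0.20 (SE, 95% interval -0.33 to 0.52). The intervals of Arc and Bdnf hold changes in either direction.

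**Figure D1:**
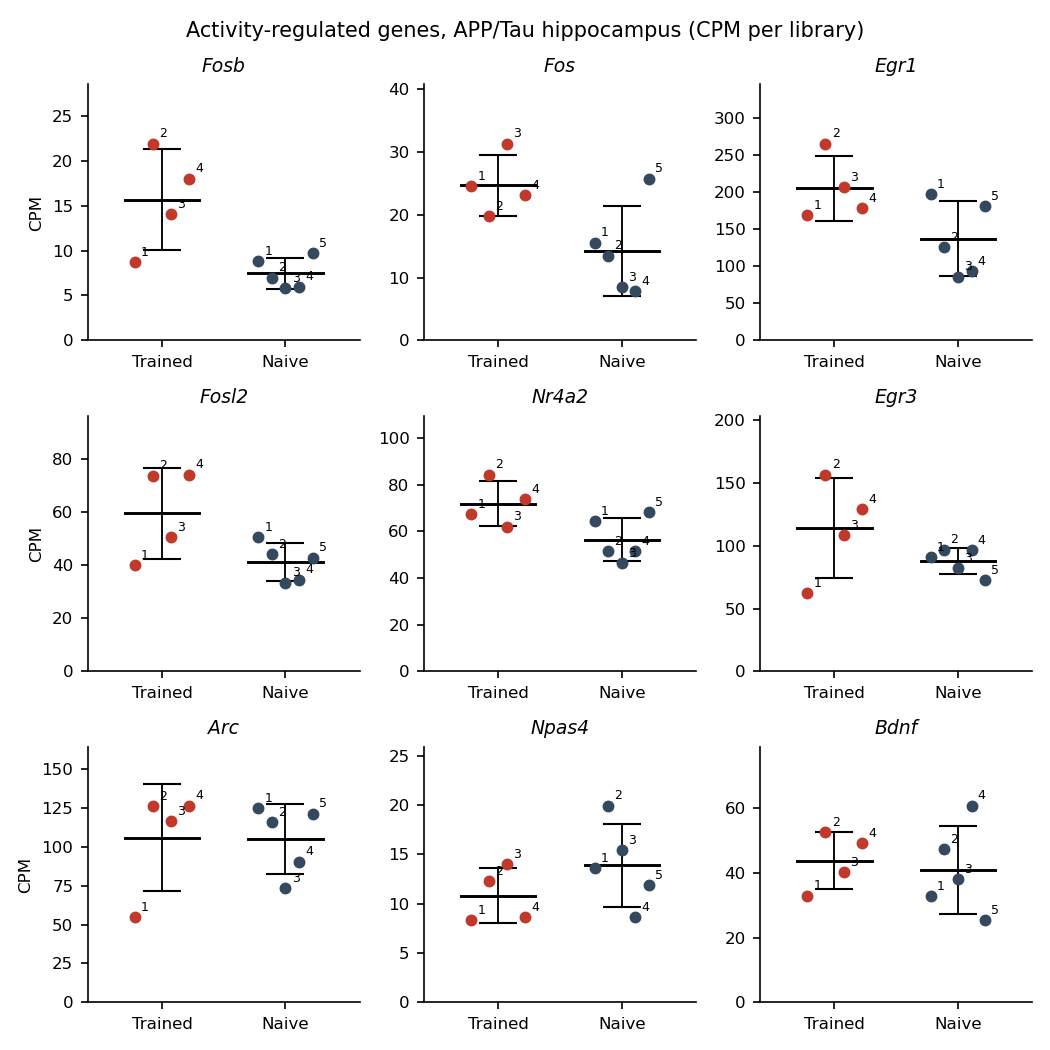
Level in CPM (linear axis from 0) of 9 activity genes in each of the 4 trained (left) and 5 naive (right) APP/Tau hippocampal libraries. Points carry the library number, the line is the mean and the bars are ± 1 SD. Trained libraries 2, 3 and 4 stand above all naive libraries in Fosb and Egr3, while trained library 1 of Arc, at 54.6 CPM, is the lowest of the 9.

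A score of the whole list, the mean log2 CPM over its 32 genes, was 4.51, 4.71, 4.72 and 4.65 in trained libraries, against 4.47, 4.37, 4.17, 4.12 and 4.65 in naive ones. Naive library 5 reached the trained range, and it was the highest naive library in 17 of the 32 genes. Trained library 1 was the lowest trained library in 15 of the 32.

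The log2 changes of these genes in control hippocampus stand beside those in APP/Tau hippocampus. The differences between genotypes did not pass the test. The median log2 change of the 32 genes was 0.24 in APP/Tau and 0.08 in control hippocampus. The signed change was higher in APP/Tau in 24 of the 32. The share over all genes was not counted, so nothing is read from this number. For Fosb it was 1.07 ± 0.30 in APP/Tau and 0.56 ± 0.28 in controls, a difference of 0.51 ± 0.41 (SE, 95% interval -0.34 to 1.36). For Fos the difference was 0.30 ± 0.45 (95% interval -0.65 to 1.25), and for Egr1 0.12 ± 0.38 (-0.66 to 0.91). Arc differed by -0.07 ± 0.34 (-0.79 to 0.65) and Bdnf by -0.16 ± 0.28 (-0.73 to 0.41). These intervals are wide and hold differences in either direction.

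Over all genes, the test of the difference in training effect between genotypes called 0 of 25791 genes (0%) in edgeR, with a smallest adjusted p of 0.984, and 1005 at an unadjusted p under 0.05 (3.90%). DESeq2 called 3 and limma-voom 0 at an adjusted p under 0.05, and 1157 and 1098 at an unadjusted p under 0.05. The unadjusted count ran from 715 to 2388 when a library was left out, the highest without naive APP/Tau library 5. In 4 of the 32 immediate early genes the 95% interval of the difference excluded 0, namely Nr4a2, Klf4, Nfil3 and Npas4. In Npas4 the change was -0.36 ± 0.20 in APP/Tau and 0.34 ± 0.18 in controls, a difference of -0.70 ± 0.28 (SE, 95% interval -1.27 to -0.13, adjusted p 0.984 in edgeR). Behind it stood 10.8 ± 2.76 CPM in trained and 13.9 ± 4.21 CPM in naive APP/Tau mice, and 12.2 ± 1.77 CPM in trained and 9.67 ± 1.90 CPM in naive controls (SD, n = 4, 5, 6 and 5). For Nr4a2 the difference was 0.38 ± 0.17 (0.03 to 0.73), with 71.8 ± 9.60 CPM in trained and 56.5 ± 9.37 CPM in naive APP/Tau mice, and 84.3 ± 13.5 CPM in trained and 86.3 ± 7.41 CPM in naive controls.

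The BLA is the region where tone and shock are thought to be associated. The log2 changes of the immediate early genes in the BLA of APP/Tau mice stand beside those in the hippocampus. The median of the 32 genes was 0.44 in the BLA (0.01 over all genes) beside 0.24 in the hippocampus. The signed BLA value exceeded the hippocampal one in 27 of the 32. That count takes in Npas4, whose decrease was smaller in the BLA. Its share over all genes was not counted, so nothing is read from it. Fos had log2 changes of 0.79 ± 0.34 in the hippocampus and 1.47 ± 0.38 in the BLA (SE), where it averaged 27.5 ± 8.09 CPM in trained and 9.96 ± 4.73 CPM in naive mice (SD, n = 4 and 5). The difference, hippocampus minus BLA, was -0.67 ± 0.53 (95% interval -1.75 to 0.41). For Arc it was -0.64 ± 0.38 (-1.42 to 0.14), for Egr1 -0.31 ± 0.37 (-1.07 to 0.45) and for Fosb -0.21 ± 0.46 (-1.13 to 0.72). Npas4 was lower in trained mice on average in both regions, with a log2 change of -0.21 ± 0.20 in the BLA.

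Over all genes the test of the difference between regions called 0 of 26725 genes (0%) in edgeR, with a smallest adjusted p of 1.00, and 730 at an unadjusted p under 0.05 (2.73%). DESeq2 and limma-voom each called 0 at an adjusted p under 0.05, and 833 and 668 at an unadjusted p under 0.05. The 95% interval excluded 0 in 4 of the 32 genes: Nr4a2 at -1.15 ± 0.35 (-1.85 to -0.45), Fosl2 at -0.71 ± 0.32 (-1.36 to -0.05), Jun at -0.60 ± 0.28 (-1.18 to -0.03) and Mafk, a small Maf protein, at 0.35 ± 0.15 (0.05 to 0.65). Library numbers are shared by both regions, and whether a number marks the same mouse is not stated. The tissues were treated as independent. BLA tissue was taken as punches and hippocampi were dissected whole, and BLA libraries were made from less RNA than hippocampal ones. Region, dissection and RNA input therefore cannot be told apart.

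**Figure D2:**
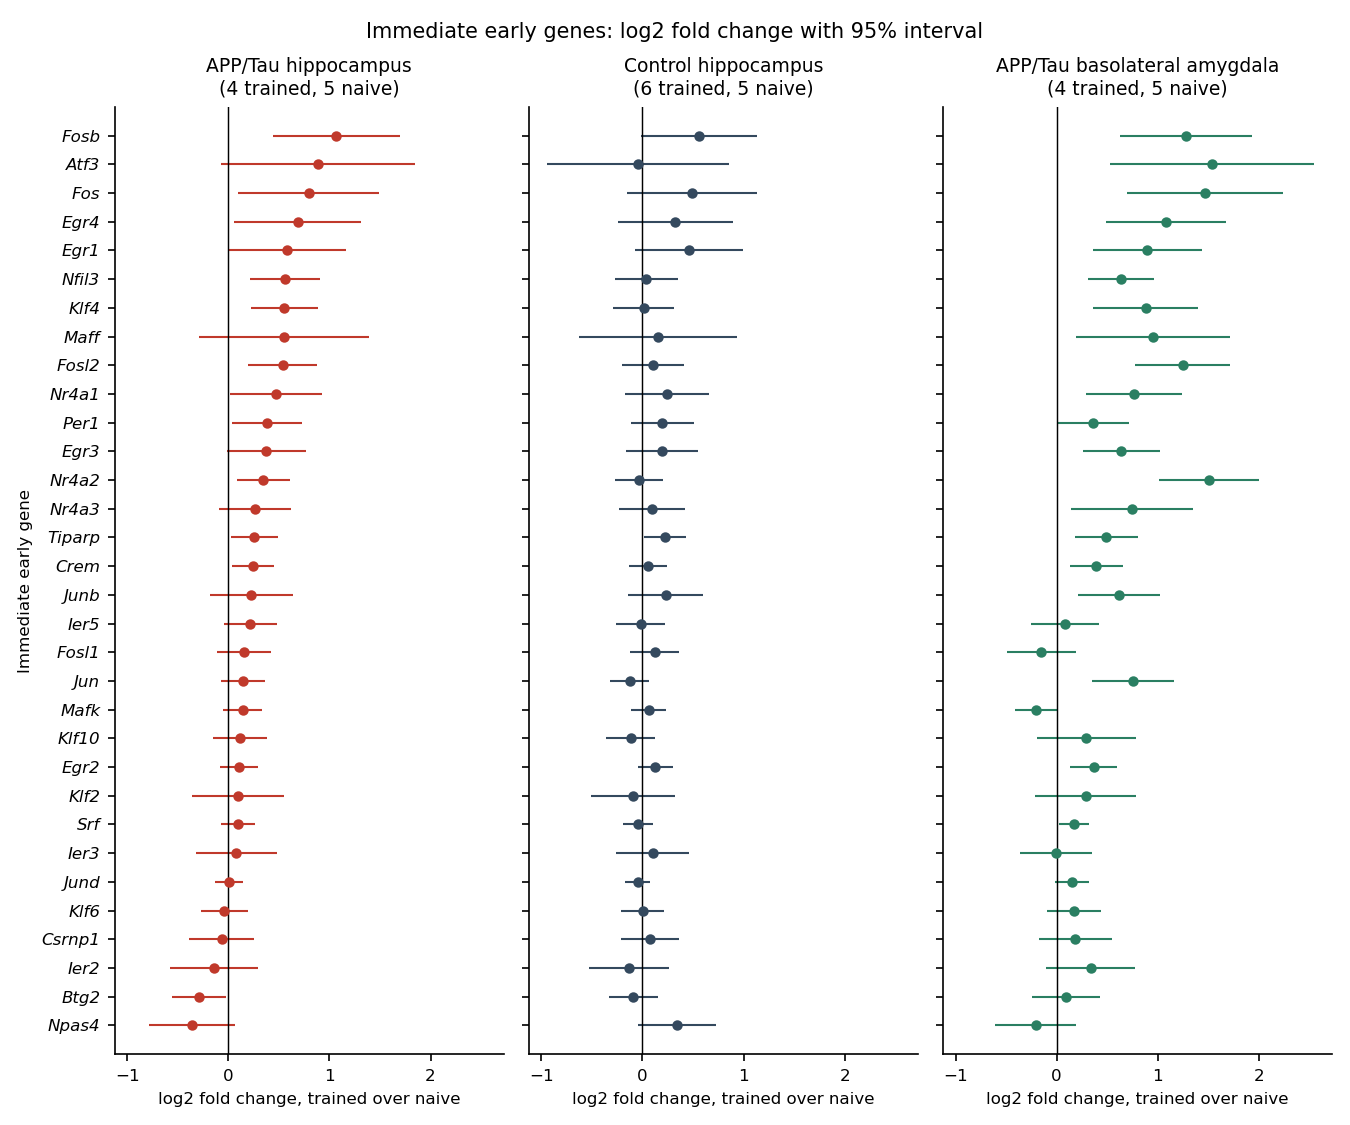
Log2 change, trained minus naive, of the 32 immediate early transcription factors with its 95% interval, in APP/Tau hippocampus, control hippocampus and APP/Tau BLA (linear axes). The hippocampal intervals of Fosb, at 0.44 to 1.70, and of 11 other genes lie above 0 in APP/Tau mice. The signed BLA values are higher than the hippocampal ones in 27 of the 32 genes, a share not counted over all genes.

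The slower activity effector genes, which act at the synapse, in secretion or in signalling, stayed near the median of all genes. Of 37 listed genes, 36 were tested. At an unadjusted p under 0.05, 4 were higher (beside 2.41% of all genes) and 0 were lower in edgeR, 23 of 36 had a fold change above 0 and the median log2 change was 0.07. The median was 0.09 in control hippocampus and 0.30 in the BLA, where the signed change was the higher one in 28 of 36. The share of that pattern over all genes was not counted, so nothing is read from it. The 4 were Vgf, Sik1, Mcl1 and Homer1, and leaving out naive library 3 or naive library 4 left 2, leaving out naive library 5 gave 8. Without trained library 4 and without naive library 5, 2 genes were lower, and without naive library 1, 1 was. Trained library 1 was the lowest trained library in 22 of the 36 genes.

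Vgf, a secreted neuropeptide precursor, had 201, 204, 174 and 229.8 CPM in trained libraries, against 175, 173, 147, 189.8 and 159 CPM in naive ones (log2 change 0.26 ± 0.09 SE, 95% interval 0.08 to 0.44). Only trained library 3 fell within the naive range. Sik1, a salt-inducible kinase that restrains CREB signalling, averaged 12.4 ± 2.25 CPM in trained and 8.91 ± 1.90 CPM in naive mice (log2 change 0.48 ± 0.17 SE). In controls the change of Sik1 was -0.06 ± 0.16, and the difference between genotypes was 0.54 ± 0.23 (95% interval 0.06 to 1.03, adjusted p 0.984 in edgeR). Homer1, a scaffold of metabotropic glutamate receptors whose short form is induced by activity, had 182, 242, 189.7 and 212 CPM in trained libraries, against 207, 179, 163, 163 and 177 CPM in naive ones (log2 change 0.22 ± 0.09 SE). Isoforms cannot be told apart in gene counts. Nptx2, a secreted protein that gathers AMPA receptors, had a log2 change of 0.13 ± 0.14 (-0.16 to 0.42), and Ptgs2, an inducible cyclooxygenase, -0.22 ± 0.25 (-0.74 to 0.30).

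Feedback inhibitors of kinase signalling are switched on by the ERK pathway and then dampen it. Of 18 tested, 7 were higher at an unadjusted p under 0.05 and 0 were lower in edgeR, 16 had a fold change above 0, and the median log2 change was 0.20. It was 0.06 in control hippocampus and 0.27 in the BLA. The higher count was 5 without trained library 3 and without trained library 4, and 10 without trained library 1. Trib2, a pseudokinase, had 42.0, 44.0, 46.9 and 47.9 CPM in trained libraries, against 40.1, 36.9, 32.8, 34.9 and 38.6 CPM in naive ones (log2 change 0.30 ± 0.09 SE). Spry1, an inhibitor of receptor tyrosine kinase signalling, had 9.24, 9.90, 11 and 10.4 CPM in trained libraries, against 9.15, 8.70, 8.71, 6.46 and 6.47 CPM in naive ones (log2 change 0.36 ± 0.12 SE). In these 2 genes of the 18 the groups did not overlap (0.500% of all genes in this direction), although trained library 1 and naive library 1 of Spry1 nearly met. Errfi1, an inhibitor of the EGF receptor, averaged 52.1 ± 8.20 CPM in trained and 41.0 ± 3.62 CPM in naive mice. Spred1, Spry4, Dusp5 and Dusp14, all of them brakes on the ERK pathway or on related kinases, had log2 changes of 0.23 ± 0.07, 0.40 ± 0.14, 0.50 ± 0.21 and 0.25 ± 0.11 (SE). Dusp1, another phosphatase of this kind, did not share the direction, at -0.21 ± 0.21 (-0.65 to 0.23).

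Stress pathways were mixed. Among 22 heat shock chaperones, 6 were higher at an unadjusted p under 0.05 and 0 lower in edgeR, 21 had a fold change above 0 and the median log2 change was 0.13, beside 0.00 in control hippocampus and 0.20 in the BLA. Hspa5, the chaperone of the endoplasmic reticulum, had 287, 297, 251 and 311 CPM in trained libraries, against 225, 236, 224, 220.1 and 289 CPM in naive ones (log2 change 0.26 ± 0.10 SE). Naive library 5 was the naive library within the trained range. Stip1, a co-chaperone that links Hsp70 and Hsp90, averaged 193 ± 9.76 CPM in trained and 172 ± 11.5 CPM in naive mice. Hspb1, a small heat shock protein also found in reactive astrocytes, was highest in trained library 1, at 8.96 CPM, and had a log2 change of 0.84 ± 0.28. The list gave 4 higher genes without trained library 4 and without naive library 3, and 10 without naive library 5.

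Of 24 genes of the glucocorticoid response, which corticosterone induces through its receptor, 2 were higher at an unadjusted p under 0.05 and 0 lower in edgeR, and the median log2 change was 0.08. Those 2 were Errfi1 and the clock gene Per1, which are also on other lists. This count was 1 without each of trained libraries 2 and 3 and naive libraries 3 and 4, 5 without trained library 1 and 9 without naive library 5, and the median ran from 0.01 to 0.15. Of 19 core clock and output genes, 3 were higher and 2 lower, with a median of -0.04. The higher count was 1 without trained library 3 and without naive library 4, and 4 at most. The lower count was 0 without trained library 1 and without naive library 2, 1 without trained library 3 and without each of naive libraries 1, 3 and 4, and 4 without naive library 5. The median turned positive without trained library 4 (0.0339) and without naive library 3 (0.00618). No direction is read from this list. Dbp, a transcription factor with a strong daily rhythm, had 30.7, 47.9, 40.0 and 42.2 CPM in trained libraries, against 63.1, 88.0, 54.6, 50.3 and 49.4 CPM in naive ones (log2 change -0.60 ± 0.25 SE, 95% interval -1.13 to -0.08). Every trained library lay under every naive one. In controls Dbp differed by 0.01 on the log2 scale. The time of day at which mice were killed is not given in the sources used here.

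Of 24 hypoxia response genes, 4 were higher and 0 lower at an unadjusted p under 0.05 in edgeR, and the median log2 change was 0.10. This count was 2 without trained library 1, without trained library 3, without naive library 3 and without naive library 4, and 11 without naive library 5. P4ha1, a subunit of the enzyme that hydroxylates proline in collagen, had the smallest p of the list. Its promoter at chr10:59323046-59323295 (RefSeq, GRCm38.p6, plus strand) is shown because the core of the hypoxia response element, ACGTG or its reverse complement CACGT, in capitals, begins 16 bases before the start.
P4ha1: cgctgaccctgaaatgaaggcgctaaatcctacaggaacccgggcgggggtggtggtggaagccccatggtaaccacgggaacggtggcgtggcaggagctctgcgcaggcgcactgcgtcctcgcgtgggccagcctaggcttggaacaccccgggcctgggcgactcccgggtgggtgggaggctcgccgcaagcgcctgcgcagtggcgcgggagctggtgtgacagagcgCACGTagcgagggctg
The core was in 17 of the 30 promoters of the 22 hypoxia genes found in the table (56.7%) and in 19.6% of all promoters, over windows of 300 bases and both strands. P4ha1 had 54.0, 67.5, 59.2 and 63.4 CPM in trained libraries, against 49.9, 43.6, 39.1, 42.5 and 56.9 CPM in naive ones (log2 change 0.39 ± 0.09 SE, 95% interval 0.21 to 0.58, adjusted p 0.986 in edgeR). Naive library 5 lay above trained library 1 alone. Trained and naive APP/Tau mice averaged 61.0 ± 5.76 and 46.4 ± 7.05 CPM, and trained and naive controls 58.7 ± 1.94 and 59.2 ± 4.69 CPM (SD, n = 4, 5, 6 and 5). The naive APP/Tau mean lay under the other 3. In the BLA its log2 change was 0.49 ± 0.09. Slc2a1, the glucose transporter of brain endothelium, had a log2 change of 0.27 ± 0.10, and Adm, a vasodilator peptide precursor, of 0.49 ± 0.21 (SE).

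The integrated stress response gave 2 higher and 0 lower of 20 genes at an unadjusted p under 0.05 in edgeR, and p53 targets gave 1 higher and 1 lower of 16. The first count was 0 without trained library 1 and without naive libraries 2 and 4, 1 without trained library 3 and without naive library 3, and 5 without trained library 2 and without naive library 5. For p53 targets the higher count was 0 without trained library 1 and without naive libraries 2, 3 and 4, 2 without trained library 4 and without naive library 1, and 6 without naive library 5. The lower count was 2 without naive library 1, 1 without trained library 3 and without naive library 4, and 0 without the other libraries. These counts are too unsteady to give a direction. Trib3, an inhibitor of AKT induced by this response, averaged 0.663 ± 0.129 CPM in trained and 0.415 ± 0.101 CPM in naive mice. Both values are under 1 CPM.

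Markers of gliosis were spread more widely within each group than between the groups. Plaque-associated microglia and reactive astrocytes are known marks of amyloid and tau pathology. Of 30 genes of disease-associated microglia, 29 had a fold change above 0 and the median log2 change was 0.43, yet only 5 were higher at an unadjusted p under 0.05 (beside 2.41% of all genes) and 1 was lower. All 26 genes of reactive astrocytes had a fold change above 0, with a median of 0.51, and 3 were higher at an unadjusted p under 0.05. All 21 genes of complement and antigen presentation had a fold change above 0, with a median of 0.45, and 2 were higher. In control hippocampus the medians were -0.04, -0.12 and -0.12, and in the BLA of APP/Tau mice 0.56, 0.63 and 0.61.

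These values rested on single libraries. The score of reactive astrocytes was 4.85, 2.29, 4.26 and 3.07 in trained libraries, against 3.03, 2.80, 2.57, 2.23 and 4.51 in naive ones. Trained libraries 1 and 3 and naive library 5 were high, and the other 6 lay between 2.23 and 3.07. The median log2 change was 0.07 without trained library 1, and 1.13 without naive library 5. The higher count of this list was 0 without trained library 1, 12 without trained library 2, 6 without trained library 4 and 21 without naive library 5. For disease-associated microglia the median ran from 0.16 (without trained library 1) to 0.94 (without naive library 5). Its higher count was 1 without trained library 1 and without trained library 3, 16 without trained library 2, 2 without naive library 1 and without naive library 4, 3 without naive library 3, and 24 without naive library 5. For complement and antigen presentation the median ran from 0.08 to 0.94. Its higher count was 10 and 5 without trained libraries 2 and 4, 4 and 18 without naive libraries 2 and 5, and 0 without each of trained libraries 1 and 3 and naive libraries 1, 3 and 4. No direction of a training effect is read from these lists.

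Gfap, the intermediate filament of reactive astrocytes, had 4521, 672, 3722 and 1795 CPM in trained libraries, against 1595, 1308, 901, 994 and 4882 CPM in naive ones, a log2 change of 0.47 ± 0.44 (SE, 95% interval -0.45 to 1.39). Trained and naive controls averaged 398 ± 51.4 and 417 ± 51.9 CPM (SD, n = 6 and 5), so every APP/Tau library lay above both control means. Spp1, osteopontin, which microglia make near plaques, had 142, 2.11, 96.0 and 10.8 CPM in trained libraries, against 6.56, 9.48, 5.51, 1.94 and 41.0 CPM in naive ones (log2 change 2.28 ± 0.81 SE). Its highest values were in trained libraries 1 and 3, while trained library 2 had less than 4 of the 5 naive libraries. Gpnmb and Cd74, also microglial genes of this state, had log2 changes of 1.39 ± 0.55 and 1.61 ± 0.69. P2ry12, a purine receptor of homeostatic microglia, went the other way, with 47.8, 42.0, 36.9 and 36.9 CPM in trained libraries, against 47.7, 45.3, 48.5, 49.4 and 64.4 CPM in naive ones (log2 change -0.32 ± 0.10 SE, 95% interval -0.53 to -0.11). Of the 20 homeostatic genes, 1 was higher and 1 lower at an unadjusted p under 0.05, and the median was 0.07. The median was 0.35 with 9 higher genes without naive library 5, and -0.10, -0.04 and -0.03 with 0 higher without trained library 1, trained library 3 and naive library 4. The higher count was 2 without trained library 2 and also 0 without naive libraries 1, 2 and 3, and the lower count was 2 without trained libraries 1 and 4 and without naive libraries 3 and 4. The interferon response, with 24 genes, gave 0 higher and 0 lower in edgeR, with a median of 0.12. Without naive library 5 it gave 8 higher genes and a median of 0.46, without naive library 1 it gave 1 higher and 1 lower, and without trained library 3 it gave 1 lower. Its median was -0.08 without trained library 1 and -0.01 without naive library 4.

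**Figure D3:**
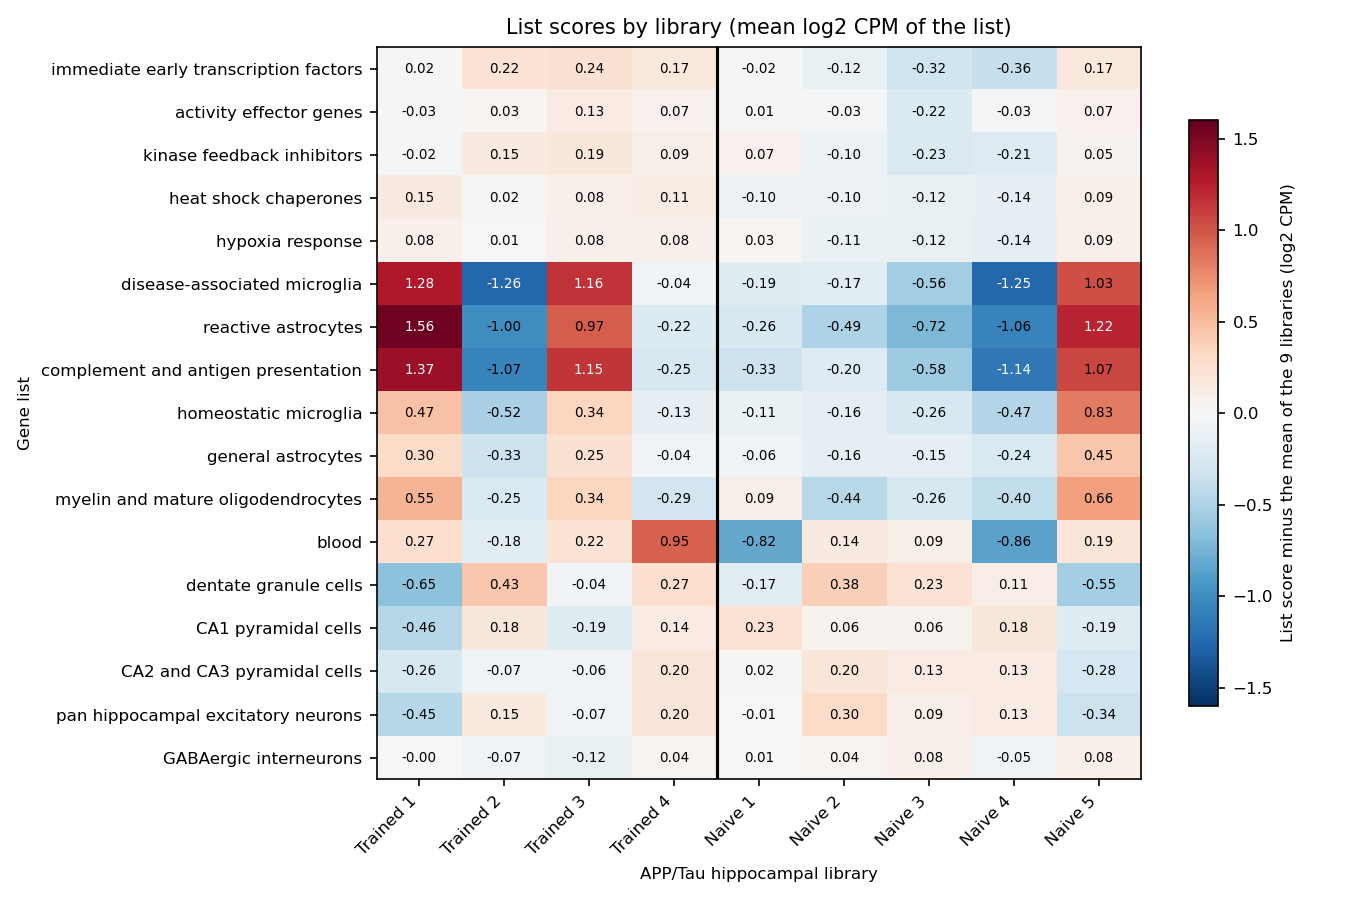
Score of 17 gene lists (mean log2 CPM of a list's genes, minus the mean over the 9 libraries) in the 4 trained (left) and 5 naive (right) APP/Tau hippocampal libraries. Glial lists are high in trained libraries 1 and 3 and naive library 5, where the dentate granule cell list is low in trained library 1 and naive library 5, at 4.38 and 4.48 log2 CPM before centring.

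Activity genes and glial markers did not move together in every library. A score of gliosis, the mean log2 CPM of the disease-associated microglia and reactive astrocyte lists together, was 5.61, 3.07, 5.28 and 4.09 in trained libraries, against 3.99, 3.89, 3.58, 3.04 and 5.33 in naive ones and 2.39 to 2.74 in the controls. Trained library 2, with the lowest trained gliosis score, had the highest trained values of Fosb, Egr1 and Egr4. Trained library 1, with the highest score, had the lowest trained values of Fosb, Egr4 and Arc. Fos did not follow this order, with its lowest trained value in trained library 2 and its highest in trained library 3. Naive library 5, with the highest naive score, had the highest naive values of Fos and Fosb and the lowest naive values of Egr3 and Bdnf. With the gliosis score as a covariate the immediate early list had 13 higher genes at an unadjusted p under 0.05, beside 2.54% of all genes in that fit. Its median log2 change was 0.21, and Fos had 0.66. With the same covariate the medians of disease-associated microglia and reactive astrocytes were -0.06 and -0.04, and values near 0 follow because the score is made from these lists. The part of gliosis in the differences of the activity genes was not tested.

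Markers of dentate granule cells were lowest in 2 of the libraries with high glial markers. The score of dentate granule cells was 4.38, 5.46, 4.99 and 5.30 in trained libraries, against 4.86, 5.42, 5.26, 5.14 and 4.48 in naive ones. Trained library 1 and naive library 5 were lowest. None of the 16 dentate genes was past an unadjusted p of 0.05 in edgeR, and the median log2 change was 0.02. It ran from -0.09 (without trained library 2) to 0.18 (without trained library 1, where 1 gene was higher), and was negative too without trained library 4 and without naive library 5. Of 12 genes of CA1 pyramidal cells, 2 were lower (Man1a, a Golgi mannosidase, at -0.26 ± 0.11, and Pou3f1, a POU domain factor, at -0.27 ± 0.13), with a median of -0.10. This count was 0 without trained library 1, trained library 3, naive library 1 and naive library 4, 1 without naive library 2 and 4 without trained library 2. Markers of CA2 and CA3 cells also had a median of -0.10, with 0 of 16 past the unadjusted p in edgeR. Without trained library 4 there were 4 lower genes and without naive library 5 there were 2, and without trained library 2 there was 1 higher gene. Camk2a, the kinase subunit whose promoter drives the Cre, had 1578, 3386, 2378 and 3351 CPM in trained libraries, against 3146, 4094, 3664, 3569 and 1694 CPM in naive ones (log2 change -0.27 ± 0.21 SE).

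Synaptic and respiratory lists had small median changes of negative sign, and for glutamate receptors and presynaptic genes the sign depended on single libraries. Of 15 GABA receptor genes 1 had a fold change above 0, with a median of -0.06 and 0 past the unadjusted p in edgeR. Of 36 genes of glutamate receptors and their scaffolds 13 had a fold change above 0 (median -0.03), and of 30 presynaptic genes 8 (median -0.05). Nuclear oxidative phosphorylation genes (4 of 30 above 0, median -0.05) and mitochondrially encoded genes (0 of 13 above 0, median -0.08) gave 0 past the unadjusted p in edgeR, against 48.9% of all genes with a fold change above 0. The median of glutamate receptor genes was 0.0424 without trained library 1 and just above 0 without trained library 3 and without naive library 2, and that of presynaptic genes was 0.0150 without trained library 1. Lower genes appeared without naive library 5 (3 GABA receptor genes, 2 of glutamate receptors, 3 presynaptic, 3 of oxidative phosphorylation) and without trained library 4 (1 of glutamate receptors, 2 presynaptic, 3 of oxidative phosphorylation). Without naive library 1, 5 genes of oxidative phosphorylation and 2 mitochondrially encoded ones were lower, and without each of trained libraries 2 and 3, 1 gene of oxidative phosphorylation was. In control hippocampus the medians of these 5 lists, in the same order, were 0.03, 0.02, 0.01, 0.03 and 0.08. The score of GABA receptors was lowest in trained library 1 and naive library 5, at 6.79 and 6.84, against 6.95 to 7.13 in the other libraries, the same libraries in which gliosis markers were highest or nearly so.

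Markers of tissue outside the hippocampus overlapped between the groups. The summed level of thalamic markers was 375 to 429 CPM in trained and 341 to 506 CPM in naive libraries, and that of markers of striatum and central amygdala was 332 to 407 CPM in trained and 364 to 458 CPM in naive ones. Choroid plexus and ependyma markers spanned 655 to 2175 CPM in trained and 571 to 2327 CPM in naive libraries. Blood genes, 10 of 10 with a fold change above 0, summed to 57.2 to 84.6 CPM in trained and 41.5 to 73.6 CPM in naive libraries. Myelin genes summed to 7153 to 12104 CPM in trained and 6534 to 12965 CPM in naive libraries. Disease-associated microglia genes summed to 4994 to 12006 CPM in trained and 5350 to 11965 CPM in naive libraries. The corresponding ranges for reactive astrocyte genes were 938 to 6307 and 1228 to 6408 CPM. No tested gene of any of these lists was at 0 in all 9 libraries. The filter on low counts came first and left 16 of 17 genes of striatum and central amygdala, so nothing is read from this. The part of these lists in the differences between trained and naive mice was not tested.

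**Figure D4:**
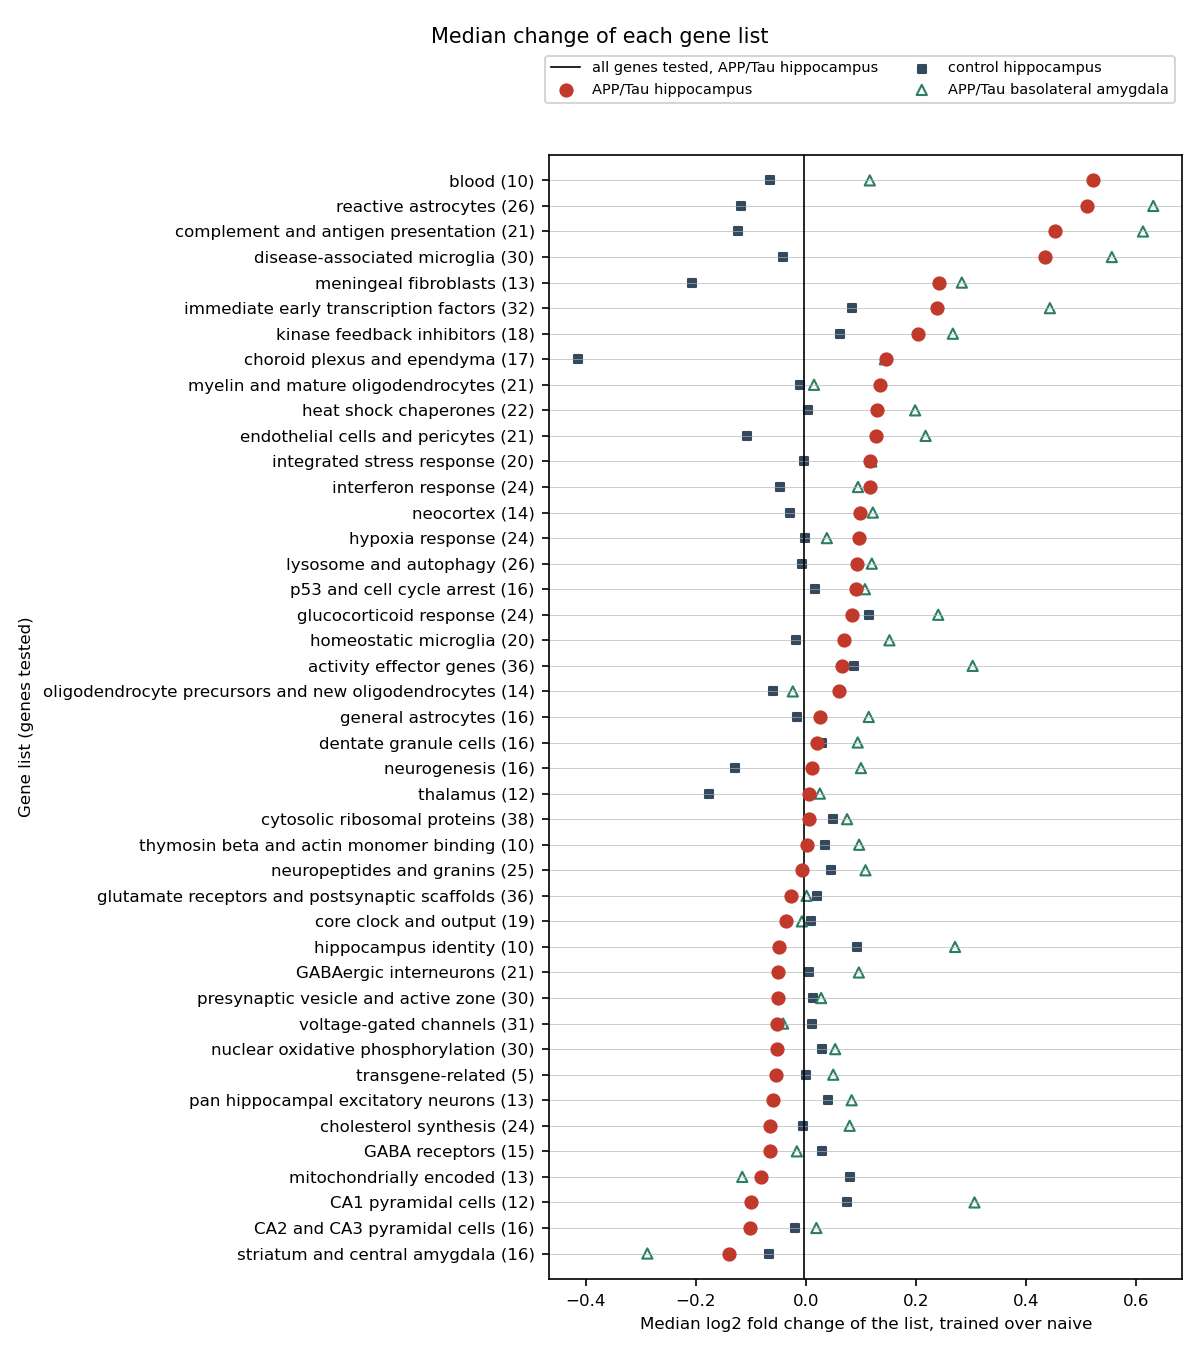
Median log2 change, trained minus naive, of each of the 43 gene lists in APP/Tau hippocampus, control hippocampus and APP/Tau BLA, with a line at the median of all genes in APP/Tau hippocampus. Immediate early genes stand at 0.24, 0.08 and 0.44, and the 3 gliosis lists between 0.43 and 0.51 in APP/Tau hippocampus.

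The 10 genes with the smallest p, among genes with a mean of at least 1 CPM and leaving out unnamed predicted genes, held no member of the activity lists. Of these 10, 6 were higher and 4 lower in trained APP/Tau mice, and the groups did not overlap in 7. Over all genes, 0.500% had all trained libraries above all naive ones and 0.589% below them. The 10 were chosen by their p in this same comparison, so their separation follows from the choice and adds no evidence. Ttc27, which codes for a tetratricopeptide repeat protein, had 14.1, 14.8, 14.7 and 15.5 CPM in trained libraries, against 17.6, 17.6, 19.1, 19.5 and 17.6 CPM in naive ones. No trained library reached the naive range. The log2 change was -0.31 ± 0.05 (SE, 95% interval -0.42 to -0.20), with an adjusted p of 0.355 in edgeR and 0.000149 in DESeq2, and it was the named gene that DESeq2 called. Trained and naive controls had 17.3 ± 0.790 and 17.4 ± 0.388 CPM, so that the trained APP/Tau mice were the group apart from the other 3.

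Zfp775 and Zfp386, both zinc finger proteins, had log2 changes of -0.37 ± 0.09 and -0.39 ± 0.10. Zfp775 had 6.52, 5.76, 5.93 and 6.23 CPM in trained libraries, against 8.14, 8.03, 8.12, 7.39 and 7.91 CPM in naive ones, a separation with an SD of 0.335 in trained and 0.308 in naive mice. Plch1, a phospholipase C of the eta class, averaged 8.40 ± 0.372 CPM in trained and 11.01 ± 0.845 CPM in naive mice (log2 change -0.39 ± 0.10). For Plch1 and Zfp775 the naive APP/Tau mice were the group farther from the controls, whose means were 8.62 and 8.92 CPM (Plch1) and 6.75 and 6.36 CPM (Zfp775) in trained and naive mice.

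Among the higher genes, Lamc1, the gamma 1 chain of laminin in basement membranes, had 40.8, 43.9, 38.2 and 38.7 CPM in trained libraries, against 34.2, 33.3, 34.1, 31.1 and 37.4 CPM in naive ones (log2 change 0.25 ± 0.06 SE). Lrp8, a receptor for reelin and apolipoprotein E, had 87.9, 92.0, 79.3 and 87.2 CPM in trained libraries, against 77.7, 74.3, 76.4, 75.6 and 70.3 CPM in naive ones (log2 change 0.21 ± 0.05 SE). Smad1, a transducer of bone morphogenetic protein signals, had 23.97, 23.0, 24.9 and 22.7 CPM in trained libraries, against 18.5, 17.5, 18.8, 17.9 and 22.3 CPM in naive ones (log2 change 0.32 ± 0.08 SE). In all 3 the groups did not overlap, and in Lamc1 and Smad1 the naive library nearest the trained ones was library 5. Acer2, an alkaline ceramidase, averaged 9.34 ± 0.951 CPM in trained and 5.73 ± 1.62 CPM in naive mice (log2 change 0.70 ± 0.18). Gpr35, a G protein-coupled receptor of low level here, averaged 3.34 ± 0.639 CPM in trained and 2.08 ± 0.125 CPM in naive mice (log2 change 0.68 ± 0.18). Of the 10 genes, P4ha1 among them, the trained mean was farther from the mean of the controls in 5 and the naive mean in 5.

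**Figure D5:**
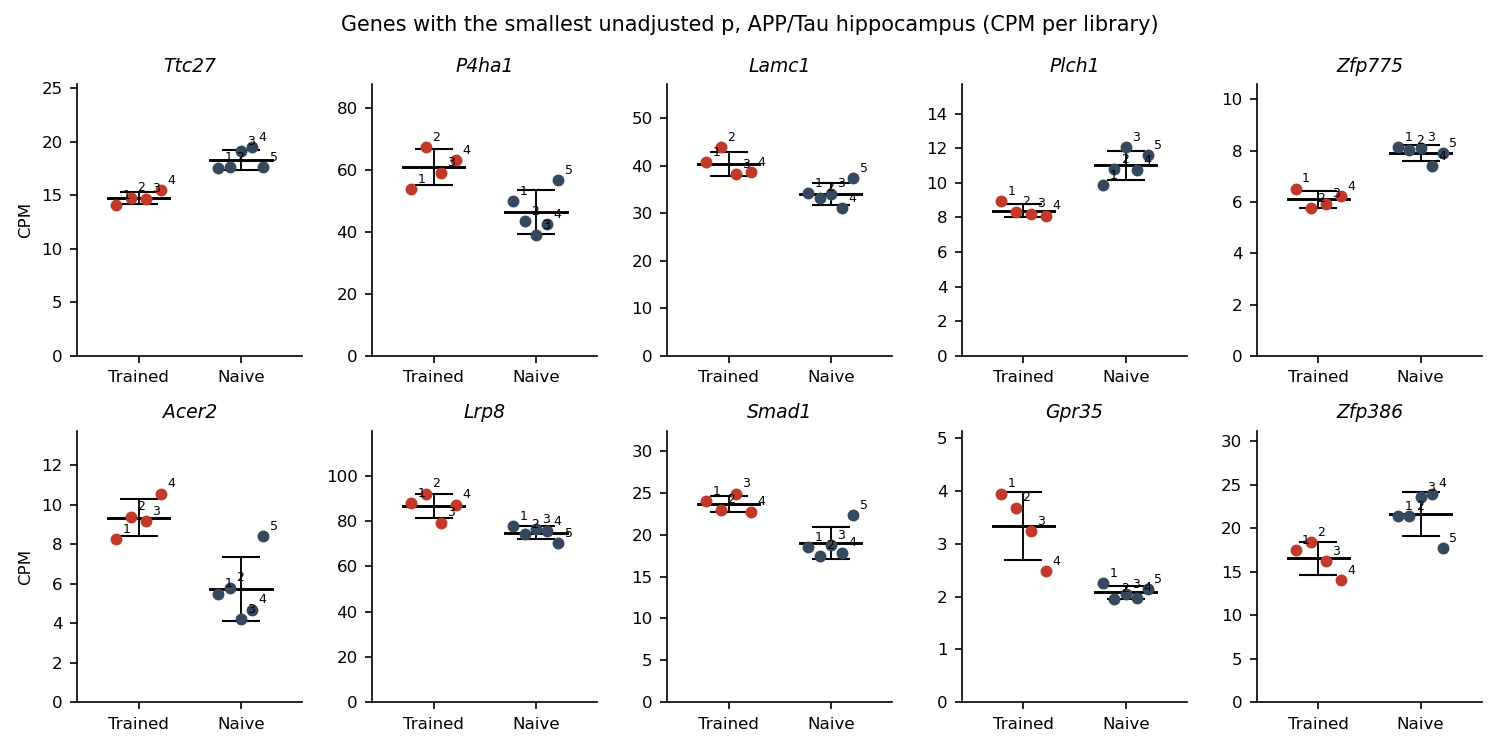
Level in CPM (linear axis) of the 10 named genes with the smallest p and a mean of at least 1 CPM (unnamed predicted genes left out) in each trained (left) and naive (right) APP/Tau hippocampal library. Points carry the library number, the line is the mean and the bars are ± 1 SD. In Ttc27 the trained libraries sit between 14.1 and 15.5 CPM, all under the naive ones.

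By the same rule on level and names, the 5 genes with the smallest p for the difference between genotypes were Adamts6, Ttc27, Zfp775, Ccz1 and Lamc1, each with an adjusted p of 0.984 in edgeR. Adamts6, a secreted metalloprotease, averaged 3.76 ± 0.250 CPM in trained and 4.84 ± 0.296 CPM in naive APP/Tau mice, and 4.17 ± 0.525 CPM in trained and 3.55 ± 0.184 CPM in naive controls (SD, n = 4, 5, 6 and 5), a difference of -0.60 ± 0.14 (SE, 95% interval -0.88 to -0.31). Ttc27 differed by -0.30 ± 0.07 (-0.45 to -0.15). Ccz1, part of the complex that activates the small GTPase Rab7, had 29.0 ± 0.498 CPM in trained and 31.8 ± 1.24 CPM in naive APP/Tau mice, a difference between genotypes of -0.23 ± 0.06. Zfp775 differed by -0.46 ± 0.12 and Lamc1 by 0.28 ± 0.08. This test and that of the training effect use the same 9 APP/Tau libraries.

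For the difference between regions, the same rule gave as the 5 genes with the smallest p Chrna5, Wnt5b, Prph, Rspo3 and Npr3, each with an adjusted p of 1.00 in edgeR. In 4 of them the hippocampal groups were close and the BLA groups far apart with a wide spread. Chrna5, a nicotinic receptor subunit, averaged 7.96 ± 0.793 CPM in trained and 8.53 ± 1.77 CPM in naive hippocampus, and 3.39 ± 2.97 CPM in trained and 1.02 ± 0.552 CPM in naive BLA (SD, n = 4, 5, 4 and 5). Rspo3, an amplifier of Wnt signals, averaged 12.9 ± 0.508 CPM in trained and 13.4 ± 1.46 CPM in naive hippocampus, and 8.29 ± 5.79 CPM in trained and 2.97 ± 1.20 CPM in naive BLA. Wnt5b, a Wnt ligand, and Npr3, the clearance receptor of natriuretic peptides, had differences of -1.07 ± 0.28 and -1.89 ± 0.53. Prph, which codes for the intermediate filament peripherin, was the exception, with 1.79 ± 0.185 CPM in trained and 3.43 ± 0.750 CPM in naive hippocampus, and 2.61 ± 1.22 CPM in trained and 1.22 ± 0.793 CPM in naive BLA, a difference of -2.03 ± 0.55 (95% interval -3.14 to -0.93).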

How the data were processed

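Poly(A) RNA of input lysates was sequenced as paired-end reads of 2 × 50 bp from 50 ng of RNA per hippocampal library, per the labels' protocols. The authors deposited whole-number counts per gene symbol and library, without normalization, for 50559 genes. Per the submitters' processing notes, Trimmomatic 0.39 trimmed the reads, and the build was mm39. Which aligner, counter, annotation and strand setting were used, and how mates were counted, is not given in the sources used here. Among counts of 1 to 20, even numbers made up 54.9 to 62.7% in the 9 libraries, so small counts may rest on fewer fragments than their size. Each library also held more counts than the number of reads that the labels' protocols state. Count totals are therefore not read as sequencing depth. Without a known strand setting, overlapping and antisense genes cannot be told apart.

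Groups follow the titles. All 20 hippocampal libraries entered 1 fit with 4 group means in edgeR 4.0.16 (R 4.3.3): filterByExpr (minimum count 10, minimum total count 15), TMM factors, trended dispersion, the 2-sided quasi-likelihood F test, Benjamini-Hochberg adjustment over all genes and a threshold of 0.05. The difference between genotypes came from the same fit, and that between regions from a fit over all 39 libraries with 8 group means. The SE was taken as the log2 change, without its sign, divided by the root of the F statistic, and 95% intervals use the t quantile of the fit. List scores are mean log2 CPM with a prior count of 2. Alternatives were DESeq2 1.42.0, limma-voom (limma 3.58.1), RLE factors, other filters, only the groups compared, a replicate block, a block for library numbers shared across tissues, gliosis as a covariate, leaving out each library and, added after seeing the data, leaving out 2 control libraries rich in 18S rRNA (1.99 and 5.18% of counts). The scripts were tested on simulated data. Named genes were Fos, Arc, Npas4, Egr1 and Bdnf, the 10 with the smallest p (5 for each difference), predicted genes and those under a mean of 1 CPM being passed over, the list members with the smallest p and any immediate early or effector gene. Gfap, Spry1, Spry4, Spred1, Dusp5, Dusp14, Dusp1, Hspa5, Adm, Gm31036 and Zpld1 were named in addition, after their values were seen. The comparison and the 43 gene lists were chosen with earlier results of these data known. Promoters come from RefSeq tables of GRCm38.p6, matched by symbol.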

Additional observations from a re-analysis of the deposited data

Results flagged for a closer look

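Among 38 groups of values tested (named genes and library measures such as total counts in the 4 trained and in the 5 naive APP/Tau hippocampal libraries), 2 held a library far from the others, and chance flags about 1 in 20 groups. Arc in trained library 1, at 54.6 CPM, was the lowest trained value, with the other 3 at 116 to 126 CPM, a gap of 0.859 of the range. This library also had the highest gliosis score of the trained libraries, 5.61, and the lowest dentate granule cell score, 4.38. Smad1 in naive library 5, at 22.3 CPM, was the highest naive value, with the other 4 at 17.5 to 18.8 CPM, a gap of 0.732 of the range. That library had the highest gliosis score of the naive libraries, 5.33. Whether these values are linked was not tested.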

How the results depend on the processing

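With DESeq2, 2 genes were called for training in APP/Tau hippocampus (Ttc27, log2 change -0.30, and the predicted gene Gm31036) and 3 predicted genes for the difference between genotypes. The other alternatives, fits without 1 library aside, called 0 for both, with 666 to 2100 and 668 to 2158 genes at an unadjusted p under 0.05. For the difference between regions, the replicate block called 1 gene (Zpld1) and the other alternatives 0. The replicate numbers gave no clear pairing of the libraries. The 4 same-numbered pairs had r of -0.15 to 0.33 (mean 0.14), beside a mean of -0.04 for other pairs. Of the 4 trained libraries, 0 correlated best with their own number. Whether same-numbered libraries share a batch was not tested. With the replicate block 0 genes were called for training and for the difference between genotypes, and 1553 and 1225 had an unadjusted p under 0.05. Without the 18S-rich control libraries, 1266 genes did for training and 0 were called. Fits without 1 library called 0 in each of the 3 comparisons. At an unadjusted p under 0.05 they gave 833 to 3181 genes for training and 715 to 2388 for the difference between genotypes. Of the values of named genes under alternatives, 795 kept direction and side of the threshold, 24 reversed and 1 (Ttc27 in DESeq2) passed it. For training, Arc was -0.0412 with limma-voom, -0.0306 with the replicate block and -0.0943 to 0.226 without 1 library, and Bdnf -0.0332 to 0.289 without 1 library. Between genotypes, Bdnf was 0.0889 with the gliosis covariate, and without 1 library Arc ran from -0.175 to 0.146, Bdnf from -0.324 to 0.0328 and Egr1 from -0.169 to 0.291. Between regions, Bdnf was 0.0251 with the gliosis covariate and -0.261 to 0.306 without 1 library, and Npas4 ran from -0.295 to 0.0219. All 774 list medians moved by less than the SD of the list's score between libraries. That bound is wide for glial lists, 1.01 for reactive astrocytes, whose median ran from 0.07 to 1.13 without 1 library. Homeostatic microglia changed sign within their bound, from -0.10 to 0.35, so the bound does not show that a list was steady. Of the list counts, 1205 stayed within 1.5 times and 343 moved further. The cause of these shifts was not tested. Each of the 9 libraries held at least 94.2 M counts, which is not a count of sequenced fragments. With only the 2 groups compared 666 genes (2.75%) had an unadjusted p under 0.05, beside 1184 (4.59%) with the spread shared over 4 groups.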
